A study of Mus musculus with 35 samples.

Results

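Three-dimensional epiblast stem cells (3D EpiSCs) of 2 origins were compared by bulk RNA sequencing. The members were 6 libraries of the 35 samples in the series, 3 from ESC-derived and 3 from embryo-derived 3D EpiSCs, taken by their labels. The ESC-derived cultures started from E14 embryonic stem cells kept in 2i and LIF, and the embryo-derived cultures from epiblasts dissected at E5.5 out of CD1 or LifeAct-GFP embryos. All 6 libraries were labelled wild-type, and both cultures grew as spheroids embedded in Matrigel in the same medium, which held FGF2, Activin-A, the tankyrase inhibitor XAV939 (which dampens Wnt signalling) and the BMP antagonist Noggin. Origin and genetic background changed together in this design, so that they cannot be told apart, and the labels do not give the number of lines behind each origin. Nothing in the sources stated that the 3 replicates were separate cultures, so p-values measure the spread between these libraries, which may be technical. For comparison the fit also held 3 libraries each of 2D EpiSCs (E14 cells converted on fibronectin with FGF2 and Activin-A) and of epiblast-like cells (EpiLCs, ESCs kept for 48 h in FGF2 and Activin-A), and mean values of freshly isolated epiblasts at E5.5, E6.5 and E7.5 are set beside them as a description, since those libraries were made with another kit.

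The epiblast is the pluripotent epithelium from which all tissues of the body descend. After implantation its cells leave the naive state, pass through a formative state marked by Otx2, Fgf5 and Pou3f1, and become primed for gastrulation under Nodal (mimicked in culture by Activin), FGF, Wnt and BMP signals. At the primitive streak, cells switch on T (Brachyury), Eomes, Mixl1 and Gsc and leave the epithelium as mesoderm and definitive endoderm, and EpiSCs, the cultured form of the primed state, carry a low and variable level of these genes.

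Expression is given as TPM, the share of a transcript among all transcripts scaled to a total of 1000000 in each library, always in the order of replicates 1, 2 and 3. Differences are on the log2(TPM + 1) scale, ESC-derived minus embryo-derived, with the standard error of the limma fit, and understate the change of genes near 0. Calls needed a Benjamini-Hochberg adjusted p below 0.05 together with a log2 difference beyond 1, up or down. Of 50225 autosomal genes, 12079 had more than 2 TPM in at least 3 of the 6 libraries and were tested.

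The 6 libraries were not equally far from each other. ESC-derived replicates 1 and 2 had a median absolute log2 difference of 0.0663 across the tested genes and embryo-derived replicates 2 and 3 one of 0.0581, whereas embryo-derived replicate 1 stood 0.171 and 0.168 from the other two. ESC-derived replicate 3 stood apart: it lay 0.284 and 0.262 from the other ESC-derived libraries but 0.227 to 0.230 from the embryo-derived ones, which in turn lay 0.301 to 0.330 from ESC-derived replicates 1 and 2. Over the Euclidean distance the order was different, at 56.8 and 51.9 to its own group and 60.0 to 67.6 to the other. TPM keep no depth, so whether the near-identical pairs differed beyond sampling noise could not be tested. Counts of calls in a gene list that changed without ESC-derived replicate 3 are given with and without it.

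**Figure D1:**
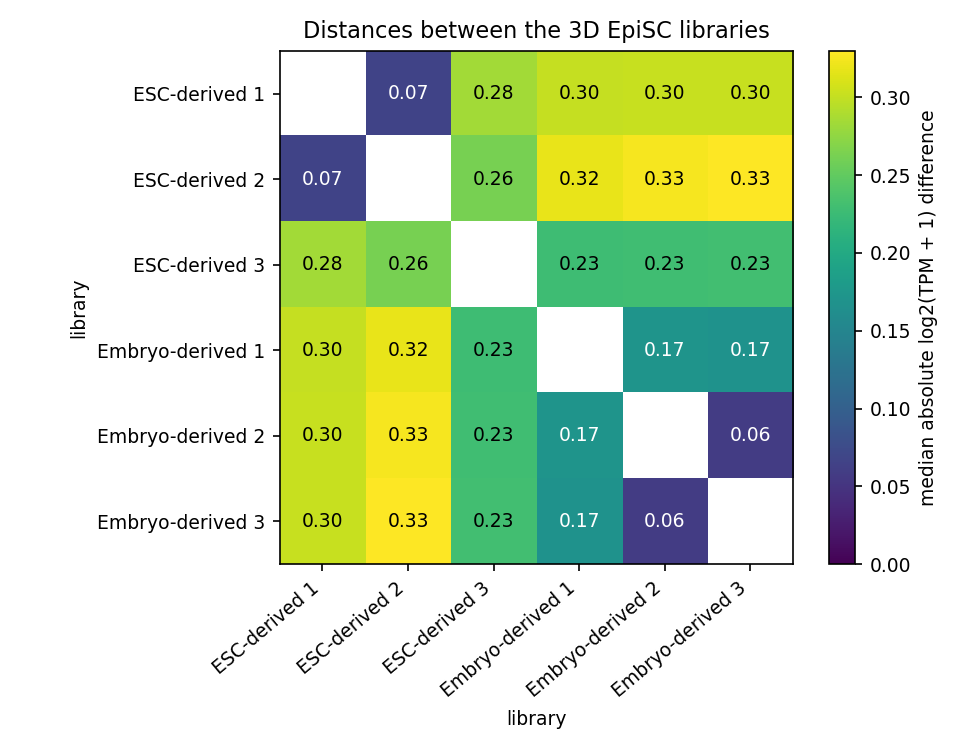
Median absolute log2(TPM + 1) difference over the 12079 tested genes for each pair of the 6 3D EpiSC libraries (rows and columns, 1 library each; colour and printed value give the difference). ESC-derived replicate 3 sits at 0.23 from all 3 embryo-derived libraries and at 0.26 and 0.28 from its own group.

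The labels were checked against marker genes. Pou5f1, the defining transcription factor of pluripotency, was at 1930.1, 1936 and 1754 TPM in the ESC-derived replicates and 1702, 1871 and 1904 TPM in the embryo-derived replicates. Fibroblast and feeder genes were mostly low, with Lum listed at 0 in all 6 libraries and Col1a1 at most at 0.791 TPM, and the 13 genes of that list summed to 34.6 to 42.8 TPM in ESC-derived and 23.2 to 25.6 TPM in embryo-derived libraries. Tagln was at 16.6, 14.2 and 1.96 TPM in the ESC-derived replicates and 1.87, 1.51 and 1.78 TPM in the embryo-derived replicates. The Y-linked gene Kdm5d, outside the autosomal set, was at 0.574, 0.48 and 0.956 TPM in the ESC-derived replicates and 10.4, 10.4 and 10.8 TPM in the embryo-derived replicates, and Ddx3y, also Y-linked, at 23.5, 22.4 and 21.6 TPM in the ESC-derived replicates and 60.3, 60.4 and 61.6 TPM in the embryo-derived replicates. Xist, the X-linked RNA of X inactivation, was at 0.0113, 0.00846 and 0.00477 TPM in the ESC-derived replicates and 1.72, 4.1 and 3.94 TPM in the embryo-derived replicates. Y-linked transcripts were thus present in all 6 libraries, and the groups did not overlap in any of these 3 genes. EpiLCs, made from ESCs, held 2.05, 1.67 and 5.97 TPM of Xist, and Kdm5d was at most at 0.745 TPM in 2D EpiSCs and EpiLCs. According to the paper, the sex of wild-type embryos was not determined. Mitochondrial transcripts made up 3.78, 3.88 and 5.42% of all TPM in the ESC-derived and 6.52, 4.69 and 4.85% in the embryo-derived libraries.

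Across the 12079 genes, 238 (1.97%) were called higher in ESC-derived and 247 (2.04%) higher in embryo-derived 3D EpiSCs. The 2 sets differed in shape. Genes higher in the ESC-derived cultures were often nearly absent from the embryo-derived ones, with 78 of the 238 below a mean of 1 TPM there, whereas 28 of the 247 genes higher in the embryo-derived cultures were below 1 TPM in the ESC-derived ones. The 3 ESC-derived and 3 embryo-derived values did not overlap in 448 of the 485 called genes (4.02% of those tested), beside 37.7% of all genes tested. The median log2 difference of all genes was -0.12. After the TPM were rescaled by median-of-ratios factors it was -0.01, and the split became 282 higher and 163 lower. Without ESC-derived replicate 3, 226 genes were higher in ESC-derived (1.87%) and 454 in embryo-derived (3.76%) 3D EpiSCs, among them 204 and 217 of the genes called with it. Without ESC-derived replicate 2, 158 genes were called higher in the embryo-derived cultures. Averaging the near-identical pairs left 205 and 135 calls, and of the 64 called genes chosen by the naming rule 22 were not called then: Lhx1, Cyp26a1, Hhex, Creb3l1, Sox2, Cer1, Gata6, Grb10, Osbpl5, Lefty1, Bmp2, Sfrp1, Fgf8, Zfp36, H2-Q7, Cdh2, Twist1, Mvd, Pmvk, Hist1h4n, Eomes and Foxa2. With only the 6 libraries of the comparison in the fit, 14 lost their call, all of them among these except Wnt11.

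**Figure D2:**
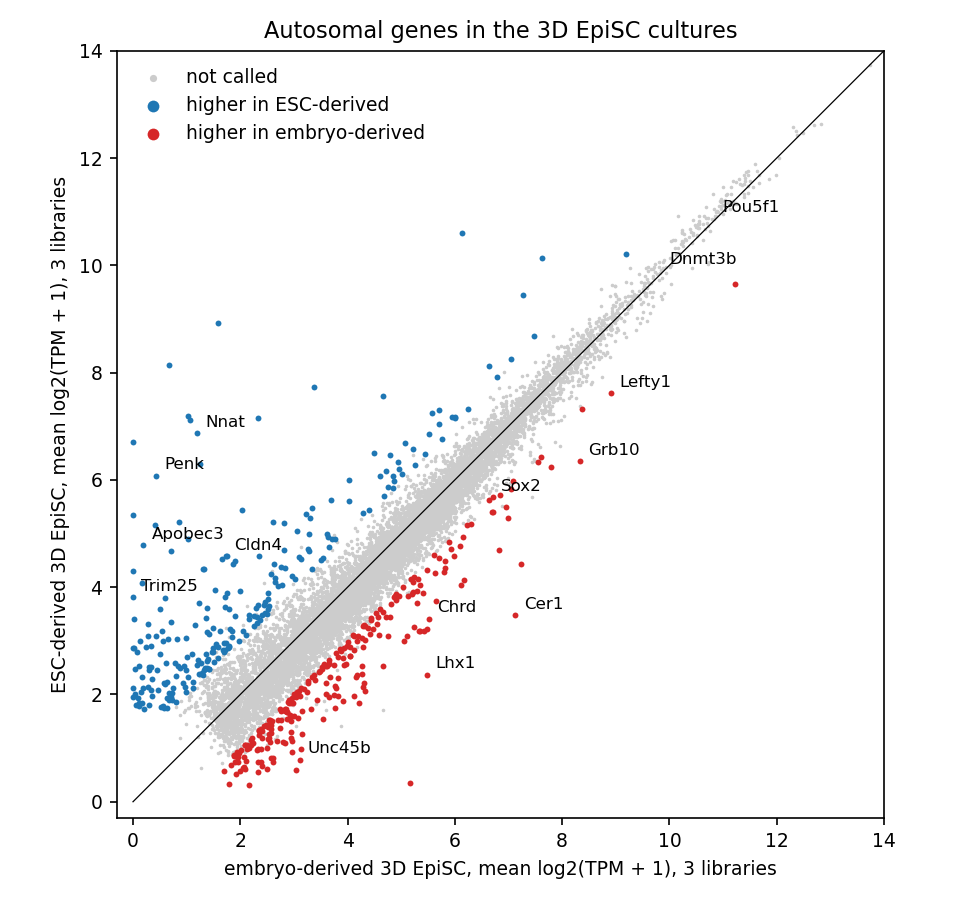
Mean log2(TPM + 1) of 3 embryo-derived (x axis) against 3 ESC-derived (y axis) libraries for the 12079 autosomal genes tested, with called genes in colour and the line of equal expression. The 238 genes higher in ESC-derived cells run down to the left edge, at or near 0 in the embryo-derived cells, while Pou5f1 and Dnmt3b lie on the line.

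The pluripotency network held a single called gene, beside 2.04% of all genes called higher in embryo-derived cells. Of its 10 tested members, 7 did not overlap between the groups (37.7% of all genes did not). By limma 7 had an unadjusted p under 0.05 (37.2% of all genes did). Their median difference was -0.39, beside -0.12 for all genes. Of 12 core pluripotency genes 10 were tested, and 1 was called, the transcription factor Sox2, at 56.8, 56.3 and 39.1 TPM in the ESC-derived replicates and 99.5, 108 and 103 TPM in the embryo-derived replicates. All 3 ESC-derived libraries were lower and the groups did not overlap, with a log2 difference of -1.03 ± 0.19 (adjusted p = 0.00417) that became -0.86 and passed the size threshold no longer without ESC-derived replicate 3. On rescaled TPM the call was lost too. Nanog, which partners with Pou5f1 and Sox2, was at 153, 148 and 125 TPM in the ESC-derived replicates and 240.1, 176 and 183 TPM in the embryo-derived replicates. These 3 ESC-derived values were all below the embryo-derived ones, and the difference of -0.48 ± 0.17 (adjusted p = 0.0646) did not pass the test.

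Of 19 genes of the formative and primed epiblast 17 were tested, and 1 was called, higher in ESC-derived cells, beside 1.97% of all genes. Otx2, which drives exit from the naive state, was at 159, 157 and 208 TPM in the ESC-derived replicates and 189.5, 177 and 189.6 TPM in the embryo-derived replicates, and the ranges overlapped. Fgf5, the classical ligand of the early post-implantation epiblast, was at 252, 243 and 194 TPM in the ESC-derived replicates and 338, 344 and 359.6 TPM in the embryo-derived replicates, with no overlap and a log2 difference of -0.60 ± 0.11 (adjusted p = 0.00404) that stayed within the size threshold. Pou3f1 (Oct6) went the other way, at 66.7, 64.2 and 40 TPM in the ESC-derived replicates and 28.5, 34.2 and 35.4 TPM in the embryo-derived replicates, also without overlap and within that threshold, at 0.75 ± 0.17 (adjusted p = 0.0145). The de novo methyltransferase Dnmt3b was near equal, at 939.6, 964 and 975 TPM in the ESC-derived replicates and 918, 911 and 914 TPM in the embryo-derived replicates.

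Fgf15, an FGF ligand of the epiblast and later of the gut, was the called gene, at 59.8, 56.9 and 54.7 TPM in the ESC-derived replicates and 19.2, 30.4 and 30.3 TPM in the embryo-derived replicates. It was lower in all 3 embryo-derived libraries, by 1.10 ± 0.18 (adjusted p = 0.00234), and without embryo-derived replicate 1 it was not called. Of 17 naive genes, 6 were tested, 1 of them having passed the filter through the ESC-derived libraries alone. Called were 2 higher in ESC-derived and 0 higher in embryo-derived cells, beside 1.97% and 2.04% of all genes. Esrrb was under the filter, at 0.86, 0.641 and 0.33 TPM in the ESC-derived replicates and 0.449, 0.578 and 0.539 TPM in the embryo-derived replicates, and Klf4, low but measurable, at 15, 13.8 and 20.6 TPM in the ESC-derived replicates and 23.3, 13.7 and 14 TPM in the embryo-derived replicates did not separate the groups. Fgf4, the autocrine FGF ligand of naive cells, was called at 10.3, 9.55 and 10.6 TPM in the ESC-derived replicates and 4.45, 3.76 and 4.63 TPM in the embryo-derived replicates (1.08), and so was the Sox-family factor Sox15 (1.22), which had at most 3.16 TPM.

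Most tested genes of the primitive streak were higher in the embryo-derived cultures. Of 20 listed genes 11 were tested, 1 of them having passed the filter through the embryo-derived libraries alone, and 8 were called higher in embryo-derived and 0 in ESC-derived cells, beside the background of 2.04% and 1.97%. Their median difference was -1.33, beside -0.12 for all genes. Without ESC-derived replicate 3, 7 were called, and the median was -1.11. Leaving out any single library gave 6 to 8 calls. With the near-identical pairs averaged 4 were called, and 4 as well with only the 6 libraries of the comparison fitted. In bulk libraries, more streak-like cells and more RNA of these genes per cell cannot be told apart.

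Chrd and Gsc, genes of the node and anterior streak, separated the groups in every library. Chrd encodes Chordin, a secreted BMP antagonist, and was at 7.3, 6.88 and 17.4 TPM in the ESC-derived replicates and 61.1, 38.9 and 37.8 TPM in the embryo-derived replicates. The lowest embryo-derived value was above the highest ESC-derived one, and the difference of the means was -2.11 ± 0.29 (adjusted p = 7.38e-04). Gsc (Goosecoid), a homeobox gene of the organizer, was at 6.37, 5.95 and 16.1 TPM in the ESC-derived replicates and 38.6, 35.9 and 36 TPM in the embryo-derived replicates, again without overlap and with a difference of -1.98 ± 0.28 (adjusted p = 9.28e-04). Both calls held in all 15 alternatives.

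Mixl1, a homeobox gene of the streak that promotes mesendoderm, was at 3.16, 2.61 and 5.61 TPM in the ESC-derived replicates and 23.5, 16.3 and 17 TPM in the embryo-derived replicates. All 3 ESC-derived libraries, replicate 3 included, stayed under the lowest embryo-derived value, and the difference was -2.09 ± 0.30 (adjusted p = 0.00104). Sp5, a direct Wnt target, followed the same order at lower levels, with 0.379, 0.642 and 1.42 TPM in the ESC-derived replicates and 5.05, 5.49 and 4.77 TPM in the embryo-derived replicates (-1.79 ± 0.17 (adjusted p = 5.23e-05)), and was the member that had passed the filter through the embryo-derived libraries alone. Lhx1, a LIM-homeobox gene needed for head organizer function, was at 1.64, 1.21 and 22.6 TPM in the ESC-derived replicates and 36, 48 and 47.3 TPM in the embryo-derived replicates, a difference of -3.10 ± 0.67 (adjusted p = 0.0108). ESC-derived replicate 3 was here far above replicates 1 and 2, though still under the embryo-derived libraries, and without it the difference was -4.20.

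Eomes, the T-box factor that specifies definitive endoderm and cardiac mesoderm, was at 41.3, 40.7 and 24.6 TPM in the ESC-derived replicates and 116, 59.3 and 58.1 TPM in the embryo-derived replicates. Foxa2, a pioneer factor of the node and endoderm, was at 32.6, 32.5 and 17.2 TPM in the ESC-derived replicates and 123, 50.1 and 50.6 TPM in the embryo-derived replicates, and the ligand Fgf8, which streak cells need for migration, at 100.3, 104 and 47.5 TPM in the ESC-derived replicates and 226, 169.7 and 167 TPM in the embryo-derived replicates. In all of Eomes, Foxa2 and Fgf8, ESC-derived replicate 3 was the lowest library and embryo-derived replicate 1 the highest. Their differences were -1.07 ± 0.27 (adjusted p = 0.0223), -1.33 ± 0.32 (adjusted p = 0.0185) and -1.22 ± 0.28 (adjusted p = 0.0141). The calls of Eomes and Fgf8 were lost without ESC-derived replicate 3, at -0.83 and -0.86, and those of Eomes and Foxa2 without embryo-derived replicate 1.

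T itself, the gene of Brachyury, did not pass. It was at 12.3, 14.1 and 23 TPM in the ESC-derived replicates and 54.6, 21.4 and 22 TPM in the embryo-derived replicates, so that ESC-derived replicate 3 exceeded embryo-derived replicates 2 and 3, and the difference of -0.86 ± 0.35 (adjusted p = 0.105) became -1.11 and passed without ESC-derived replicate 3. Evx1, another streak gene, was under the filter and not higher in embryo-derived cells. It was at 0.795, 0.609 and 0.228 TPM in the ESC-derived replicates and 0.46, 0.116 and 0 TPM in the embryo-derived replicates, with overlapping ranges. Later mesoderm genes were nearly absent in both cultures: Mesp1 reached at most 0.0566 TPM, and Msgn1 and Cdx1 were listed at 0 in all 6 libraries.

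**Figure D3:**
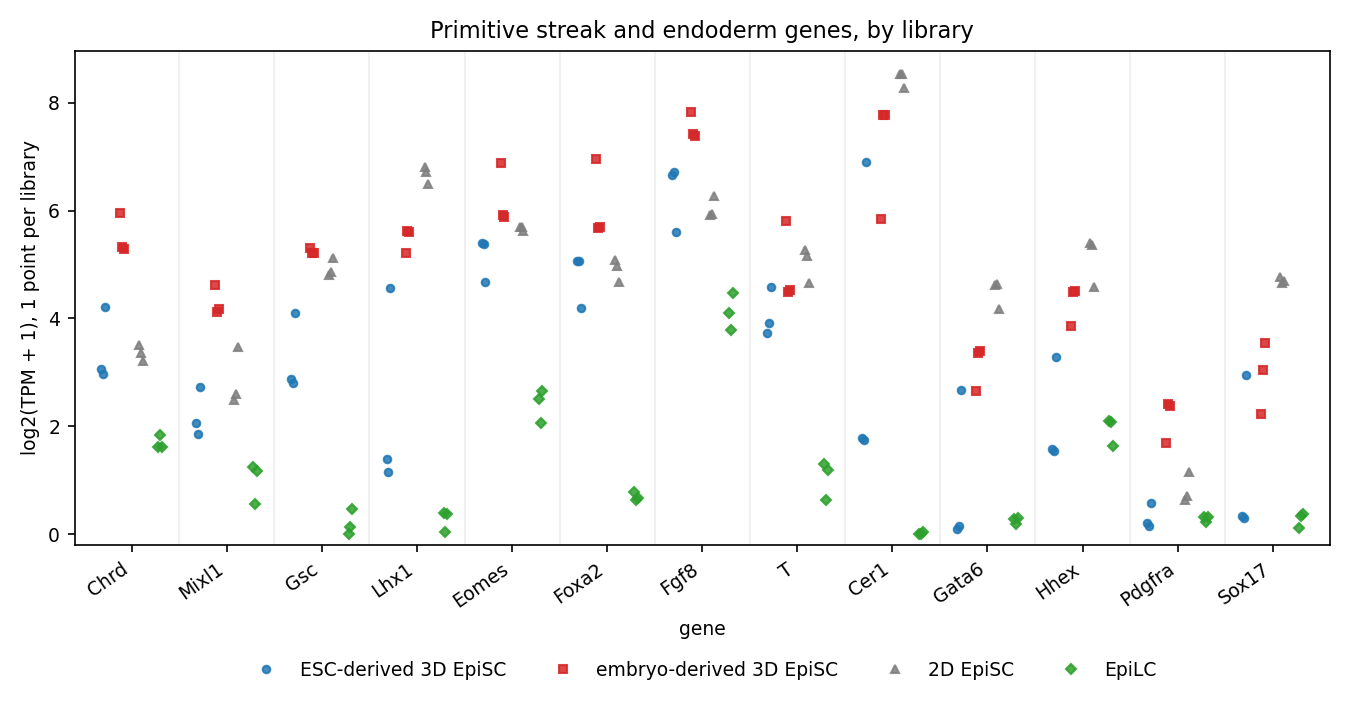
Expression, log2(TPM + 1) on the y axis, of 8 primitive streak and 5 endoderm genes (x axis) in the 12 in vitro libraries (ESC-derived and embryo-derived 3D, 2D EpiSCs, EpiLCs), 1 point per library. Chrd and Mixl1 are lower in all 3 ESC-derived than in all 3 embryo-derived libraries, while at Cer1, Gata6 and Sox17 ESC-derived replicate 3 lies inside the embryo-derived range.

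Endoderm genes showed the library that stands apart most plainly. Of 20 listed genes 8 were tested, 2 of them having passed through the embryo-derived libraries alone. Called higher in embryo-derived cells were 4, beside 2.04% of all genes, with 0 in the other direction and a median difference of -1.86. The count depended on single libraries. It was 7 without ESC-derived replicate 3 (median -2.67) and 6 without embryo-derived replicate 1. It was 2 without any one of ESC-derived replicates 1 and 2 and embryo-derived replicates 2 and 3. With only the 6 libraries of the comparison fitted it was 2 as well, and with the near-identical pairs averaged 1. Summed over the 20 genes, the ESC-derived libraries held 8.79, 9.19 and 162 TPM and the embryo-derived ones 95.6, 288 and 291 TPM. Most of the sum in ESC-derived replicate 3 and in the embryo-derived libraries was Cer1 alone, so it is not separate from the values of that gene.

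Cer1, a secreted antagonist of Nodal, BMP and Wnt made by anterior visceral endoderm and early definitive endoderm, was the member with the largest difference, at 2.44, 2.36 and 119 TPM in the ESC-derived replicates and 56.7, 218 and 217 TPM in the embryo-derived replicates. ESC-derived replicates 1 and 2 were low, while replicate 3 exceeded embryo-derived replicate 1, so the groups overlapped. The difference was -3.65 ± 1.10 (adjusted p = 0.0404) with all libraries and -5.36 without ESC-derived replicate 3, and the call was lost when ESC-derived replicate 1 or 2, or embryo-derived replicate 2 or 3, was left out. Gata6, the zinc-finger factor of endoderm, showed the same order and the same losses, at 0.0628, 0.118 and 5.42 TPM in the ESC-derived replicates and 5.32, 9.25 and 9.57 TPM in the embryo-derived replicates (-2.16 ± 0.54 (adjusted p = 0.0208)). Sox17, an HMG-box factor of endoderm, was at 0.262, 0.235 and 6.73 TPM in the ESC-derived replicates and 3.68, 7.21 and 10.7 TPM in the embryo-derived replicates. It was not called with all libraries, at -1.74 ± 0.58 (adjusted p = 0.0558), and passed without ESC-derived replicate 3, at -2.62.

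Hhex and Pdgfra separated the groups in every library. Hhex, a homeobox gene of anterior endoderm, was at 1.99, 1.92 and 8.75 TPM in the ESC-derived replicates and 13.6, 21.6 and 21.7 TPM in the embryo-derived replicates (-2.16 ± 0.41 (adjusted p = 0.00605)). Pdgfra, a growth factor receptor of primitive endoderm and mesoderm, was at 0.149, 0.113 and 0.491 TPM in the ESC-derived replicates and 2.24, 4.3 and 4.16 TPM in the embryo-derived replicates (-1.85 ± 0.20 (adjusted p = 1.29e-04)) and had passed the filter through the embryo-derived libraries alone. Markers of differentiated visceral endoderm stayed near 0: Ttr was listed at 0 in all 6 libraries, Afp at 0 in 5 and at 0.128 TPM in ESC-derived replicate 3, and Sox7, Gata4, Apoa1 and Hnf4a did not exceed 0.695 TPM. The part of other cell types in these differences was not tested.

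The pathways that induce the streak were followed through their ligands, inhibitors and targets. In the Nodal and Activin pathway, 1 of 17 tested of 20 genes was called higher in embryo-derived cells, beside 2.04% of all genes. It was the Nodal antagonist and target Lefty1, at 192, 188 and 208 TPM in the ESC-derived replicates and 364, 558 and 551 TPM in the embryo-derived replicates (-1.30 ± 0.21 (adjusted p = 0.00207)). Of the BMP pathway 14 of 21 genes were tested. The ligands Bmp7 and Bmp2 were called higher in embryo-derived cells and 1 gene higher in ESC-derived cells, beside 2.04% and 1.97% of all genes. Bmp7 was at 2.63, 2.35 and 3.99 TPM in the ESC-derived replicates and 20, 11 and 10.1 TPM in the embryo-derived replicates, without overlap (-1.84 ± 0.27 (adjusted p = 0.00129)). For Bmp2, at 1.34, 1.34 and 9.68 TPM in the ESC-derived replicates and 9.48, 12.5 and 13.3 TPM in the embryo-derived replicates, ESC-derived replicate 3 lay inside the embryo-derived range, and its call (-1.70 ± 0.46 (adjusted p = 0.0278)) was lost without ESC-derived replicate 1 or 2 and without embryo-derived replicate 2 or 3. Id2, a helix-loop-helix inhibitor and BMP target, moved the opposite way, at 54.9, 48.2 and 41.1 TPM in the ESC-derived replicates and 19.5, 14.4 and 12.6 TPM in the embryo-derived replicates (1.59 ± 0.25 (adjusted p = 0.00185)).

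Wnt genes were higher in embryo-derived cultures in 6 of 19 tested members of a list of 25, beside 2.04% of all genes, with 0 in the other direction and a median of -0.67. Of the 19, 1 (Sp5) had passed the filter through the embryo-derived libraries alone, and the count was 3 without ESC-derived replicate 1 or embryo-derived replicate 2 or 3 with the near-identical pairs averaged and with only the 6 libraries of the comparison fitted, 4 without ESC-derived replicate 2 and 7 without replicate 3. Lgr5, a receptor for R-spondins and a Wnt target, was at 0.739, 0.743 and 3.48 TPM in the ESC-derived replicates and 8.17, 7.84 and 7.58 TPM in the embryo-derived replicates (-1.89 ± 0.28 (adjusted p = 0.00138)). The ligand Wnt11 was at 2.01, 1.1 and 0.269 TPM in the ESC-derived replicates and 6.9, 4.05 and 3.55 TPM in the embryo-derived replicates (-1.50 ± 0.28 (adjusted p = 0.00482)), and here ESC-derived replicate 3 was the lowest of the 6. Sfrp1, a secreted Wnt antagonist, was at 10.4, 10.4 and 23.2 TPM in the ESC-derived replicates and 23.3, 44.6 and 43.7 TPM in the embryo-derived replicates. ESC-derived replicate 3 came close to embryo-derived replicate 1, and the call of -1.32 ± 0.33 (adjusted p = 0.0211) was lost without ESC-derived replicate 1 or 2 and without embryo-derived replicate 2 or 3.

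Among 17 tested of 19 FGF and ERK feedback genes, Fgf15 and Fgf4 were called higher in ESC-derived cells and Spred2 and Fgf8 higher in embryo-derived cells. Of all genes 1.97% and 2.04% were called in these directions. Spred2, an inhibitor of ERK signalling, was at 38.6, 38.1 and 46.9 TPM in the ESC-derived replicates and 94.6, 106 and 112 TPM in the embryo-derived replicates, with little spread inside either group and a difference of -1.32 ± 0.11 (adjusted p = 1.87e-05). In the retinoic acid list, 8 of 16 genes were tested, and 1 was called higher in each culture, beside 1.97% (ESC-derived) and 2.04% (embryo-derived) of all genes. Cyp26a1, which degrades retinoic acid, was at 1.08, 1.15 and 15.6 TPM in the ESC-derived replicates and 18.6, 19 and 19.3 TPM in the embryo-derived replicates: the groups did not overlap, but ESC-derived replicate 3 stood beside the embryo-derived libraries, and the call of -2.25 ± 0.62 (adjusted p = 0.0298) was lost when any single library other than ESC-derived replicate 3 was left out. The retinoic acid carrier Crabp2 was higher in the ESC-derived cultures, at 15.5, 15.9 and 19.2 TPM in the ESC-derived replicates and 4.94, 7.68 and 9.25 TPM in the embryo-derived replicates (1.14 ± 0.18 (adjusted p = 0.00188)), a call lost without embryo-derived replicate 1.

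Other genes named for their size in the embryo-derived direction fell outside these pathways. Unc45b, a myosin chaperone of muscle, was at 0.502, 0.753 and 0.952 TPM in the ESC-derived replicates and 6.14, 8.02 and 8.89 TPM in the embryo-derived replicates (-2.32 ± 0.17 (adjusted p = 4.97e-06)). Vcan, the extracellular matrix proteoglycan versican, was at 7.61, 8.43 and 8.27 TPM in the ESC-derived replicates and 32.8, 43.2 and 42.4 TPM in the embryo-derived replicates (-2.14 ± 0.24 (adjusted p = 1.78e-04)), and Lzts1, a leucine zipper protein, at 3.17, 3.06 and 2.6 TPM in the ESC-derived replicates and 21.1, 14.5 and 14 TPM in the embryo-derived replicates (-2.14 ± 0.15 (adjusted p = 4.97e-06)). ESC-derived replicate 3 stayed with its own group in all of these, and the calls held in all 15 alternatives. Creb3l1, a membrane-bound transcription factor of the secretory pathway, was at 3.2, 3.15 and 9.88 TPM in the ESC-derived replicates and 16.4, 28.5 and 29.9 TPM in the embryo-derived replicates (-2.13 ± 0.34 (adjusted p = 0.00218)). Pcdhgc3, a clustered protocadherin, was at 5.57, 5.93 and 16.9 TPM in the ESC-derived replicates and 54.1, 45.1 and 33.6 TPM in the embryo-derived replicates (-2.25 ± 0.37 (adjusted p = 0.0024)), and since it shares its last exons with the other genes of the cluster, its value is uncertain.

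In the opposite direction stood a set of genes that the embryo-derived cultures barely expressed. Apobec3, a cytidine deaminase that restricts retroviruses (chr15:79891659-79915906, mm10, as all positions here), was at 26.7, 27.9 and 25.5 TPM in the ESC-derived replicates and 0.0849, 0.25 and 0.0928 TPM in the embryo-derived replicates. Trim25, a ubiquitin ligase of the RIG-I antiviral pathway (chr11:88999376-89020293), was at 11.8, 11.2 and 16.6 TPM in the ESC-derived replicates and listed at 0 in all 3 embryo-derived replicates. Gpx3, a secreted glutathione peroxidase (chr11:54902453-54910377), was at 17.6, 15.9 and 14.2 TPM in the ESC-derived replicates and 0.314, 0.0914 and 0 TPM in the embryo-derived replicates. The groups were separated in each by more than 10 TPM, and the log2 differences were 4.60 ± 0.10 (adjusted p = 1.68e-10) and 3.90 ± 0.18 (adjusted p = 1.10e-07). No difference is given for Trim25, since one group was at 0.

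Ctsc, the lysosomal protease cathepsin C (chr7:88278085-88310888), was at 25.1, 26.6 and 36.4 TPM in the ESC-derived replicates and 0.51, 1.46 and 1.26 TPM in the embryo-derived replicates (3.88 ± 0.20 (adjusted p = 3.09e-07)). Capg, an actin-capping protein, was at 38.8, 38.7 and 50.9 TPM in the ESC-derived replicates and 3.46, 3.35 and 2.53 TPM in the embryo-derived replicates (3.41 ± 0.19 (adjusted p = 7.20e-07)), and Arc, a neuronal immediate early gene whose protein forms capsids, at 23.5, 22.8 and 27.5 TPM in the ESC-derived replicates and 0.516, 0.695 and 0.705 TPM in the embryo-derived replicates (3.96 ± 0.10 (adjusted p = 1.12e-09)). In these genes the 3 embryo-derived libraries were low and ESC-derived replicate 3 was the highest of the 6. The call of Capg held in all 15 alternatives. Ctsc, Arc, Apobec3, Trim25 and Gpx3 were under 2 TPM in every embryo-derived library and so had passed the filter through the ESC-derived libraries alone.

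Nnat and Penk had the largest differences among the called protein-coding genes. Nnat (neuronatin), a paternally expressed imprinted gene that lies inside Blcap on the opposite strand (chr2:157560078-157562522), was at 158, 159 and 62.6 TPM in the ESC-derived replicates and 0.839, 1.34 and 1.78 TPM in the embryo-derived replicates (5.68 ± 0.31 (adjusted p = 4.72e-07)). Penk, the precursor of enkephalin peptides, was at 58.2, 59.3 and 85.5 TPM in the ESC-derived replicates and 0.0808, 0.362 and 0.654 TPM in the embryo-derived replicates (5.65 ± 0.19 (adjusted p = 9.35e-09)). ESC-derived replicate 3 was lowest of its group in Nnat and highest in Penk, and in both far above the embryo-derived range. Nnat and Penk were under 2 TPM in every embryo-derived library and so had also passed the filter through the ESC-derived libraries alone. Gm20431, at 29.8, 41 and 50.3 TPM against 0 in each embryo-derived replicate, is a readthrough model over Ube2v1 and Tmem189, was also at 0 in single libraries of the other cultures, and is uncertain.

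Most of these genes were expressed by the other cultures. In 2D EpiSCs Apobec3 was at 46.3, 48.2 and 45.9 TPM, Trim25 at 26.3, 24.1 and 28.9 TPM and Ctsc at 34.5, 36.8 and 34.7 TPM. EpiLCs had 116, 141 and 129 TPM of Apobec3, 63.1, 65.2 and 65.3 TPM of Trim25 and 13.3, 18.9 and 13.4 TPM of Ctsc. Freshly isolated E5.5 epiblasts, made with another kit and shown side by side without a test, held 37.4 ± 0.781 TPM of Apobec3, 36.2 ± 0.662 TPM of Trim25, 30.1 ± 1.28 TPM of Gpx3 and 41.6 ± 1.87 TPM of Ctsc (mean ± SD, n = 3). These E5.5 libraries also carried transcripts of visceral endoderm, with Ttr at 80.0 to 89.5 TPM, Apoa1 at 346 to 376 TPM and the 20 endoderm genes summing to 1159 to 1198 TPM, and the part of such cells in the values was not tested. Among the in vitro libraries the embryo-derived 3D cultures were the low ones in all 4 genes. Penk and Arc were different, at 1.15 ± 0.3 and 2.41 ± 0.919 TPM at E5.5, with 2.57, 1.82 and 2.74 TPM of Penk in EpiLCs but 101, 101 and 123 TPM in 2D EpiSCs. Of the 78 genes below 1 TPM in embryo-derived cells, 38 had more than 2 TPM in all 3 of these E5.5 libraries, beside 87.3% of all genes tested.

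**Figure D4:**
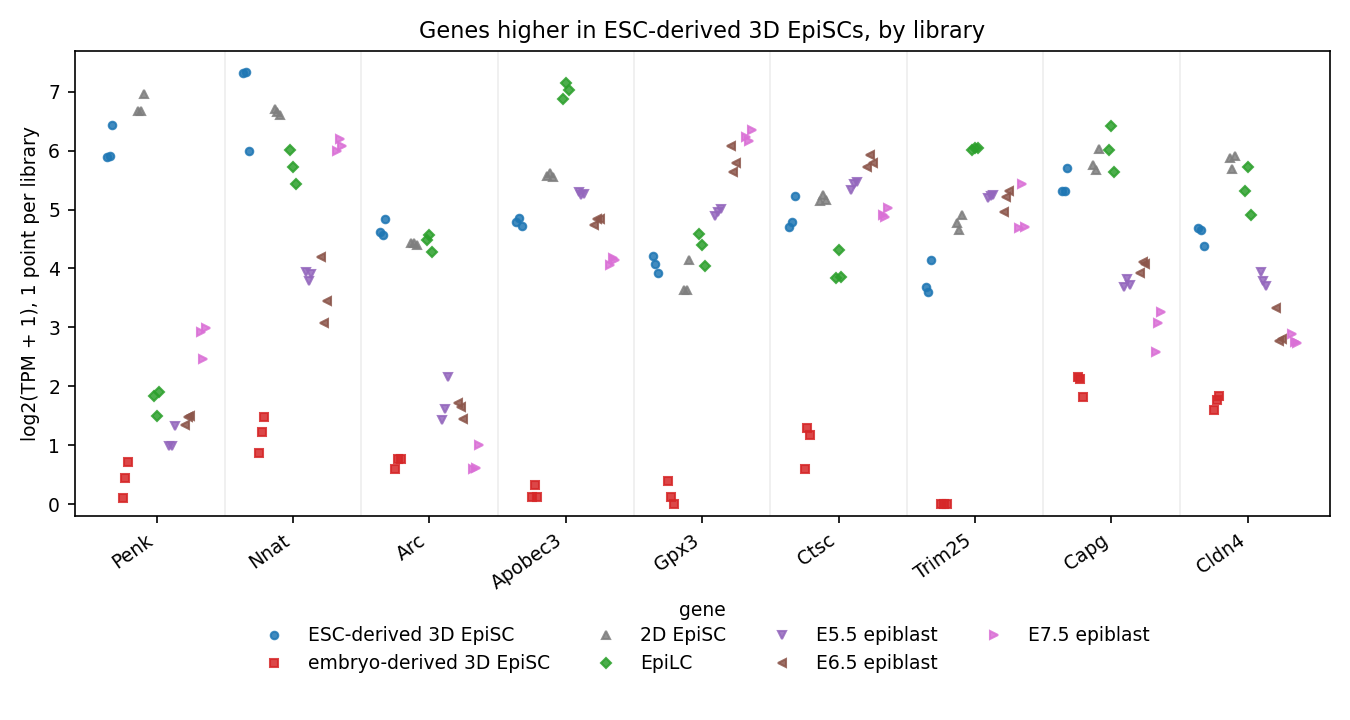
Expression, log2(TPM + 1) on the y axis, of 9 genes called higher in ESC-derived 3D EpiSCs (x axis) in 3 libraries each of the 4 in vitro cultures and of E5.5, E6.5 and E7.5 epiblasts (another library kit, shown side by side), 1 point per library. The 3 embryo-derived 3D libraries are the lowest of the in vitro libraries in all 9 genes, with Trim25 at 0 in each.

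The same held over the whole set. In 184 of the 238 genes called higher in ESC-derived cells (77.3%), the 3 embryo-derived libraries lay outside the range of the other 9 in vitro libraries, which was so for 11.6% of all genes. In 17 of them (7.14%) it was the ESC-derived 3D libraries that lay outside, beside 5.84% of all genes. Among the 247 genes called higher in embryo-derived cells, the embryo-derived libraries lay outside in 105 (42.5%) and the ESC-derived ones in 26 (10.5%). A call already requires that the groups differ, so these shares describe the called genes and are no test. The other 9 libraries all came from ESCs, and only the embryo-derived ones had another origin and genetic background. These 2 cannot be told apart here either. Lhx1, Cer1 and Cyp26a1 belong to the genes where 2D EpiSCs had more than either 3D culture, with 111, 104 and 89.1, 369.9, 369.6 and 309 and 139, 134 and 82.5 TPM.

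Promoters of the near-absent genes are shown because those that could be matched held fewer CpG dinucleotides, the sites of DNA methylation in mammals, at the median than all matched promoters. RefSeq windows from 250 bases before to 50 after the start (build GRCm38.p6) were matched to 7666 of the 10594 tested protein-coding genes, with starts at most 1000 bases apart. They held a median of 22 CpGs (quartiles 16 and 30). For the 103 matched of 177 protein-coding genes called higher in ESC-derived cells the median was 12 (quartiles 8 and 19), and for the 144 matched of 216 called higher in embryo-derived cells it was 20. At least 20 CpGs were present in 61.5% of all matched windows, in 23.3% of those higher in ESC-derived cells, in 52.1% of those higher in embryo-derived cells, and in 12.5% (5) of the 40 matched of 66 whose embryo-derived mean was under 1 TPM. Genes with an embryo-derived mean under 1 TPM had passed the filter largely through the ESC-derived libraries. All matched genes include those expressed in both groups, so these sets were selected differently and their shares are not like for like. These counts are a description, and methylation itself was not analysed here.

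The 250 bases before the RefSeq start follow for 4 genes nearly absent from embryo-derived cells and, for contrast, for Chrd and Lhx1, which were higher there. Each runs 5′ to 3′ on the gene's strand, with CpGs in capitals. RefSeq starts can differ from the gene positions given above. By those positions the Apobec3 and Gpx3 stretches lie inside the gene, and the Trim25 stretch runs past the start of the gene. Apobec3 (chr15:79892158-79892407, plus strand), Gpx3 (chr11:54902604-54902853, plus strand), Ctsc (chr7:88277835-88278084, plus strand) and Trim25 (chr11:88999153-88999402, plus strand) held 12, 11, 9 and 12 CpGs, and Chrd (chr16:20732877-20733126, plus strand) and Lhx1 (chr11:84525535-84525784, minus strand) 28 and 26. Over the 300-base window the 4 promoters held 13, 13, 12 and 18 CpGs, and at least as many were found in 84.6, 84.6, 86.7 and 69.0% of matched promoters. Chrd and Lhx1, with 34 and 31, were above the median of 20 of the genes higher in embryo-derived cells, and 16.7% and 23.5% of matched promoters held as many.
Apobec3: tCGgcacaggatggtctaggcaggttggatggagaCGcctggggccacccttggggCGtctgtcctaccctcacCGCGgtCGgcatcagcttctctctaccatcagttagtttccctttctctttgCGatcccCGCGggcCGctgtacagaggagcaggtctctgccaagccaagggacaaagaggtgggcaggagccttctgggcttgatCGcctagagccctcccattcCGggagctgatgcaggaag
Gpx3: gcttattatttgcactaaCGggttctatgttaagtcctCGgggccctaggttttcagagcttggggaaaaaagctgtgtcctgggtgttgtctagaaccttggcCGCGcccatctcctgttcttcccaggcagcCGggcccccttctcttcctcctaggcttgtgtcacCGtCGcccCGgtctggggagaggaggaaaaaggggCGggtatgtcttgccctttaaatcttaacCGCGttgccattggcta
Ctsc: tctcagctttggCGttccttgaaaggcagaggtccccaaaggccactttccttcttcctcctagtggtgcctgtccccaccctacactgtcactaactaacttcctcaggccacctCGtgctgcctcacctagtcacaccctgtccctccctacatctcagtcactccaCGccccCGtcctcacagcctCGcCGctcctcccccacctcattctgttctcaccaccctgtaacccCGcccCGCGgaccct
Trim25: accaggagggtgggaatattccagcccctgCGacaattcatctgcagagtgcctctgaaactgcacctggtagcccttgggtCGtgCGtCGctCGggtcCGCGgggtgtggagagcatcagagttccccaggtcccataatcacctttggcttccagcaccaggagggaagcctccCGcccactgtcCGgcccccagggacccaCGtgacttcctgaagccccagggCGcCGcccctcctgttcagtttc
Chrd: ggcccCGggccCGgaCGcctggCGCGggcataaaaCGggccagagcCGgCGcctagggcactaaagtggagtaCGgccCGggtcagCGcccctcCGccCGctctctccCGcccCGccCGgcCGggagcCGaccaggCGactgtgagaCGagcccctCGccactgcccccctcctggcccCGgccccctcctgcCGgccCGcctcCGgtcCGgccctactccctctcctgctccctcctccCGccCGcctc
Lhx1: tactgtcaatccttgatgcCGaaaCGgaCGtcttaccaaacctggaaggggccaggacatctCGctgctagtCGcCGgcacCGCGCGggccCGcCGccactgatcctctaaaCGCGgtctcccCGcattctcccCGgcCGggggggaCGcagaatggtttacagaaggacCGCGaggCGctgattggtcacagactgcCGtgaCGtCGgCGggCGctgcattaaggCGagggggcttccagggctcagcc

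Genes of innate defence were among those lower in embryo-derived cells. Of 30 MHC class I and interferon-response genes 20 were tested, 2 of them having passed through the ESC-derived libraries alone. Called were 4 higher in ESC-derived and 0 higher in embryo-derived cells, beside 1.97% and 2.04% of all genes, and the median was 0.05. Without ESC-derived replicate 3 there were 3 and 1, and the median was -0.04. The genes called with all libraries were, beside Apobec3, Ifitm3, a membrane protein that blocks virus entry, at 36.3, 42.4 and 29.6 TPM in the ESC-derived replicates and 7.95, 6.67 and 4.03 TPM in the embryo-derived replicates (2.39 ± 0.20 (adjusted p = 1.59e-05)), Bst2 (tetherin), at 53.9, 51.8 and 87.9 TPM in the ESC-derived replicates and 11.4, 16.8 and 18.8 TPM in the embryo-derived replicates (1.96 ± 0.25 (adjusted p = 4.92e-04)), and the MHC gene H2-Q7, at 6.51, 5.47 and 11.3 TPM in the ESC-derived replicates and 1.61, 3.26 and 3.24 TPM in the embryo-derived replicates (1.22 ± 0.28 (adjusted p = 0.0144)). All were separated without overlap. H2-Q7, which has near-identical relatives and is uncertain, lost its call without ESC-derived replicate 3 or embryo-derived replicate 1. Trim25 was not on that list.

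Of 21 immediate early genes, 19 were tested, and 3 were called higher in ESC-derived and 0 in embryo-derived cells, beside 1.97% of all genes, with a median of 0.54. Arc had passed the filter through the ESC-derived libraries alone, and without embryo-derived replicate 1, 6 were called. With all libraries the genes called were, beside Arc, Zfp36, an RNA-binding protein that destabilizes mRNAs, at 31.6, 33.4 and 31.8 TPM in the ESC-derived replicates and 16.4, 4.7 and 4.86 TPM in the embryo-derived replicates (2.00 ± 0.33 (adjusted p = 0.00254)), and Ctgf, a matricellular YAP target, at 35.8, 35.3 and 43.3 TPM in the ESC-derived replicates and 8.1, 9.96 and 8.71 TPM in the embryo-derived replicates (1.98 ± 0.21 (adjusted p = 1.23e-04)). Embryo-derived replicate 1 was above the other 2 embryo-derived libraries in Zfp36, and the groups did not overlap. All 22 genes of cholesterol synthesis and uptake were tested, 1 of them having passed the filter through the ESC-derived libraries alone. Called were 3 higher in ESC-derived cells and 0 lower, beside 1.97% of all genes, with a median of 0.55. Without ESC-derived replicate 3, 6 were called and the median was 0.81, and the count was 7 without embryo-derived replicate 1, 2 without ESC-derived replicate 1 or 2, and 1 without embryo-derived replicate 2 or 3.

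Mvd, the last step before isopentenyl diphosphate, was at 179, 179 and 89 TPM in the ESC-derived replicates and 83.4, 56.8 and 52.8 TPM in the embryo-derived replicates: ESC-derived replicate 3 was only just above embryo-derived replicate 1, and the call of 1.16 ± 0.30 (adjusted p = 0.0225) was lost without ESC-derived replicate 1 or 2 and without embryo-derived replicate 2 or 3. Pmvk, the enzyme before it, was at 168, 172 and 140.2 TPM in the ESC-derived replicates and 98.6, 64.6 and 64.9 TPM in the embryo-derived replicates (1.09 ± 0.19 (adjusted p = 0.00412)), and its call was lost without embryo-derived replicate 2 or 3. In both genes embryo-derived replicate 1 was the highest of its group.

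Imprinted genes moved in both directions. Of 64 listed genes 40 were tested, 2 of them (Nnat and Slc22a3) having passed the filter through the ESC-derived libraries alone. Called were 3 higher in ESC-derived cells (Nnat, Slc22a3 and Slc38a4) and 6 in embryo-derived cells, beside 1.97% and 2.04% of all genes. The count of 6 was unchanged without ESC-derived replicate 3 or embryo-derived replicate 1, but was 3 without ESC-derived replicate 2 and with only the 6 compared libraries fitted, 4 without ESC-derived replicate 1 or embryo-derived replicate 2 or 3, and 1 with the near-identical pairs averaged. Grb10, an adaptor that restrains growth factor signalling, was at 55.6, 56.1 and 168 TPM in the ESC-derived replicates and 220.4, 393 and 386 TPM in the embryo-derived replicates (-1.99 ± 0.42 (adjusted p = 0.0101)), and ESC-derived replicate 3 lay between the groups. Osbpl5, a lipid-transfer protein, was at 0.757, 0.911 and 3.4 TPM in the ESC-derived replicates and 5.3, 7.24 and 7.96 TPM in the embryo-derived replicates (-1.66 ± 0.30 (adjusted p = 0.00435)), and Slc22a3, an organic cation transporter, at 2.25, 2.24 and 2.51 TPM in the ESC-derived replicates and 0, 0.192 and 0.27 TPM in the embryo-derived replicates (1.54 ± 0.11 (adjusted p = 6.76e-06)). The other genes called higher in embryo-derived cells were Phlda2, Igf2r, Igf2 and H13. Meg3, a maternally expressed noncoding RNA often examined for imprint loss in stem cells and named here after its values were seen, was at 125, 111 and 139.5 TPM in the ESC-derived replicates and 181, 167 and 183 TPM in the embryo-derived replicates and was not called (-0.50 ± 0.23 (adjusted p = 0.13)).

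Epithelial genes were largely shared. All 26 genes of polarity and junctions found in the table were tested, and the tight-junction claudin Cldn4 was the single call, at 24.9, 24 and 20 TPM in the ESC-derived replicates and 2.02, 2.39 and 2.56 TPM in the embryo-derived replicates (2.85 ± 0.18 (adjusted p = 1.52e-06)), held in all 15 alternatives. Of all genes 1.97% were called in that direction. Cdh1 (E-cadherin) was at 347, 351 and 409.8 TPM in the ESC-derived replicates and 390.2, 341 and 348 TPM in the embryo-derived replicates and Prkci, the atypical protein kinase C of the apical Par complex, at 57.9, 59.6 and 85.3 TPM in the ESC-derived replicates and 68.9, 72.9 and 70.6 TPM in the embryo-derived replicates. In both, ESC-derived replicate 3 was the highest library and the groups overlapped, with differences of 0.04 ± 0.11 (adjusted p = 0.82) and -0.09 ± 0.13 (adjusted p = 0.658).

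Of 14 EMT and mesenchymal genes 10 were tested. Called were 3 higher in embryo-derived and 2 in ESC-derived cells, beside 2.04% and 1.97% of all genes. Without ESC-derived replicate 3 these counts were 3 and 1. Cdh2 (N-cadherin) was at 7.15, 7.36 and 18 TPM in the ESC-derived replicates and 25.9, 26.2 and 28 TPM in the embryo-derived replicates (-1.35 ± 0.30 (adjusted p = 0.0123)), a call lost without ESC-derived replicate 2. Zeb2 and Zeb1, repressors of E-cadherin, were at 0.784, 0.421 and 0.429 TPM in the ESC-derived replicates and 3.03, 3.42 and 3.36 TPM in the embryo-derived replicates (-1.47 ± 0.24 (adjusted p = 0.00253)) and 0.289, 0.63 and 0.549 TPM in the ESC-derived replicates and 2.13, 3.5 and 3.42 TPM in the embryo-derived replicates (-1.42 ± 0.18 (adjusted p = 4.80e-04)). Twist1, a helix-loop-helix factor of mesenchyme, was lower in embryo-derived cells, at 2.16, 2.57 and 2.41 TPM in the ESC-derived replicates and 0.335, 0.628 and 0.745 TPM in the embryo-derived replicates (1.11 ± 0.27 (adjusted p = 0.0169)), and lost its call without ESC-derived replicate 2. These mesenchymal genes stayed at a few TPM, with Cdh2 as the exception. Zeb1 and Zeb2 had passed the filter through the embryo-derived libraries alone, and Twist1 through the ESC-derived libraries alone.

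Of 20 basement membrane genes 14 were tested, and 2 were called, both higher in ESC-derived cells, beside 1.97% of all genes, while the list's median was -0.35. Without ESC-derived replicate 3 there was 1 call in each direction, and the same was so without embryo-derived replicate 1. Nid2 (nidogen-2) was at 50.3, 51.6 and 91.9 TPM in the ESC-derived replicates and 26.7, 28.8 and 28.7 TPM in the embryo-derived replicates, with ESC-derived replicate 3 far above the others, and its difference of 1.12 ± 0.19 (adjusted p = 0.00321) fell below the size threshold without that library, at 0.84. Col18a1, a collagen of basement membranes, was at 110.3, 112 and 102 TPM in the ESC-derived replicates and 46, 56.3 and 58.1 TPM in the embryo-derived replicates, and its difference of 1.01 ± 0.11 (adjusted p = 1.17e-04), just past the size threshold, lost the call without ESC-derived replicate 1 or 2 or embryo-derived replicate 1.

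**Figure D5:**
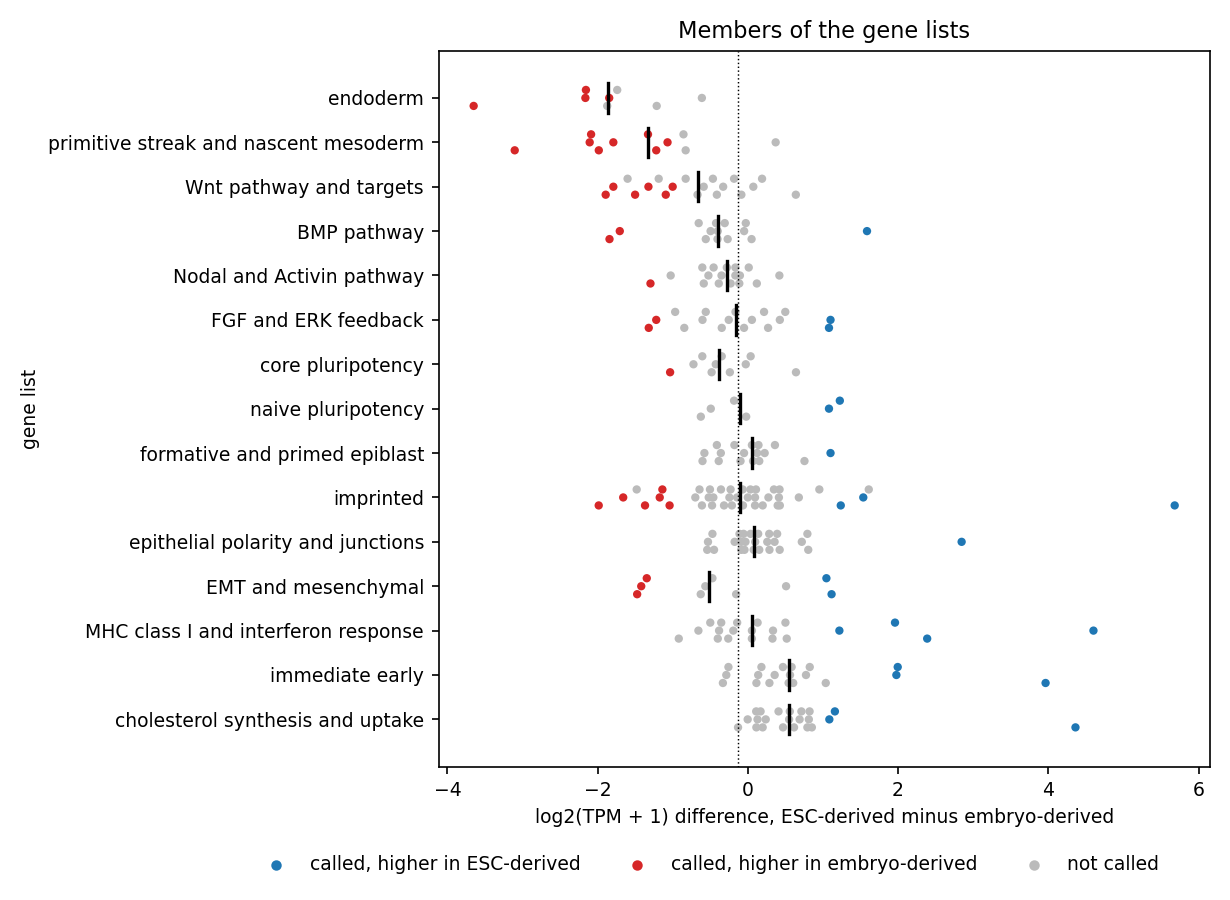
Log2(TPM + 1) difference, ESC-derived minus embryo-derived (x axis), of each tested member of 15 gene lists (rows), coloured where called, with the list median as a black bar and the median of all tested genes, -0.12, as a dotted line. Endoderm and primitive streak members lie to the left, with medians of -1.86 and -1.33, and the cholesterol list has its median at 0.55.

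Stress and growth programmes were also followed. Of 16 tested p53 targets 13 had an unadjusted p under 0.05 (37.2% of all genes did), 11 did not overlap (37.7% of all genes did not), and the median was -0.54. The share of all genes called higher in embryo-derived cells was 2.04%. Called were 2 higher in embryo-derived cells, the autophagy regulator Trp53inp1 (29.6, 29.2 and 29.7 TPM in the ESC-derived replicates and 66.9, 71.7 and 71.3 TPM in the embryo-derived replicates; -1.22 ± 0.14 (adjusted p = 2.12e-04)) and the cell cycle inhibitor Cdkn1a (60.5, 60.3 and 38.5 TPM in the ESC-derived replicates and 119, 109 and 115 TPM in the embryo-derived replicates; -1.12 ± 0.15 (adjusted p = 7.52e-04)), of which Cdkn1a fell within the size threshold without ESC-derived replicate 3. Without that library 1 target was called in each direction. Of 28 tested genes of the integrated stress response 0 were called by limma and 7 had an unadjusted p under 0.05, at a median of -0.42, and 3 were called higher in embryo-derived cells without ESC-derived replicate 3 and 8 without embryo-derived replicate 1. The serine-synthesis enzyme Psat1, the most abundant of them, was at 519, 516 and 876 TPM in the ESC-derived replicates and 459.5, 1002 and 999.9 TPM in the embryo-derived replicates, and its ranges overlapped.

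Of 24 tested genes of glycolysis and hypoxia, the lactate exporter Slc16a3 was called, at 240.2, 181 and 316 TPM in the ESC-derived replicates and 124, 111 and 96.3 TPM in the embryo-derived replicates (1.12 ± 0.17 (adjusted p = 0.00137)), and was not without ESC-derived replicate 3. Of 84 tested respiratory chain genes 1 was called, the testis-enriched cytochrome oxidase subunit Cox6b2, higher in embryo-derived cells at 38.4, 43.8 and 50 TPM in the ESC-derived replicates and 92.3, 143 and 143 TPM in the embryo-derived replicates (-1.48 ± 0.20 (adjusted p = 7.15e-04)). Among 75 tested cytosolic ribosomal proteins, 0 were called by limma, with or without ESC-derived replicate 3, and 22 had an unadjusted p under 0.05, where 37.2% of all genes did. The differences of all 75 were above the all-gene median of -0.12, with a median of 0.20. Rps2, the most abundant of them, was at 4213, 4166 and 3925 TPM in the ESC-derived replicates and 4041, 4319 and 4282 TPM in the embryo-derived replicates. Of 30 tested histone genes 1 was called, Hist1h4n, at 5.37, 8.18 and 3.55 TPM in the ESC-derived replicates and 2.12, 1.88 and 2 TPM in the embryo-derived replicates (1.10 ± 0.29 (adjusted p = 0.024)). That call was lost without ESC-derived replicate 1 or 2 and without embryo-derived replicate 2 or 3. The single calls of the glycolysis, respiratory chain and histone lists stand beside 1.97% of all genes called higher in ESC-derived and 2.04% in embryo-derived cells. Replication-dependent histone mRNAs lack a poly-A tail, so poly-A libraries catch them poorly.

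Other lineages and the methylation machinery gave few calls. Of 13 tested genes of DNA methylation and imprint maintenance 0 were called by limma and 8 had an unadjusted p under 0.05, where 37.2% of all genes did. A single gene was called higher in embryo-derived cells without ESC-derived replicate 3, and a single one higher in ESC-derived cells without ESC-derived replicate 1, without embryo-derived replicate 1, on rescaled TPM or with a pseudocount of 0.1. Of 25 germline genes silenced by methylation 1 passed the filter, the piRNA factor Tdrkh, at 20.4, 18.8 and 33.4 TPM in the ESC-derived replicates and 26.2, 35.2 and 30 TPM in the embryo-derived replicates, with overlapping groups (-0.36 ± 0.21 (adjusted p = 0.233)). Of 4 tested neural genes limma called 0, with 0 at an unadjusted p under 0.05, and of 5 tested trophoblast genes 0, with 3 at that p. Without ESC-derived replicate 3, 2 trophoblast genes were called higher in embryo-derived cells. The most abundant members were Nes (nestin), at 56.9, 57.1 and 89.5 TPM in the ESC-derived replicates and 78.7, 66.6 and 68.3 TPM in the embryo-derived replicates, and Krt18 (keratin 18), at 146, 148 and 229 TPM in the ESC-derived replicates and 122, 114 and 119.8 TPM in the embryo-derived replicates. Nes overlapped between the groups, whereas all 3 ESC-derived Krt18 values were higher, by 0.52 ± 0.20 (adjusted p = 0.0884). Of 4 tested fibroblast genes, the surface protein Thy1 was called higher in ESC-derived cells at 11.2, 10.2 and 13.7 TPM in the ESC-derived replicates and 4.35, 5.22 and 4.9 TPM in the embryo-derived replicates (1.12 ± 0.13 (adjusted p = 2.26e-04)). Of all genes 1.97% were called in that direction.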

How the data were processed

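The deposited table holds TPM of 27 bulk libraries. According to the methods of the study, the authors trimmed reads with cutadapt (version 2.4 in the submitters' processing notes), aligned them to mm10 with STAR and estimated TPM with StringTie on GENCODE models. TPM sum to 1000000 in each library and keep no depth, so no counting error is given, and a rise in abundant transcripts lowers the rest. The in vitro libraries came from poly-A RNA with a stranded kit, the in vivo ones from total RNA with another kit. The table has 54490 lines for 54446 genes. Lines of 12 repeated identifiers were summed and empty cells, on 56 lines, were set to 0. The autosomal genes above 2 TPM in at least 3 of the 6 libraries were tested on log2(TPM + 1) with limma 3.58.1 in R 4.3.3, fitting 4 groups of 12 in vitro libraries with a shared variance and no block. In a simulated version of the comparison over 12079 genes, 195 of 200 genes changed by 2 on the log2 scale were recovered (97.5%), with 2 false calls. The simulated noise was independent between libraries, without near-identical pairs or a library that stands apart. It therefore does not measure false calls in the real data.

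Named were the 10 called protein-coding genes with the largest differences and no overlap in each direction, up to 4 called members of each list (or its most abundant member where none was called), and a fixed set of epiblast, streak, endoderm and adhesion genes. A gene chosen by this rule is not reported here. The members and lists were chosen with earlier results of these data known. Positions are those of the table, overlaps come from GENCODE vM21, and promoter windows from RefSeq. Single-cell and bisulfite samples were not analysed here.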

Additional observations from a re-analysis of the deposited data

How the results depend on the processing

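With all 15 alternatives, 0 of 64 called named genes changed sign, 35 kept their call throughout and 29 lost it at least once, most often (22 genes) when the near-identical pairs were averaged, which leaves 2 values in each 3D group. Genes higher in ESC-derived cells numbered 238, between 178 and 308 under the other settings and 209 to 277 with a single library left out. Genes higher in embryo-derived cells numbered 247, but 163 on rescaled TPM, 135 with the near-identical pairs averaged, and 158 to 454 with a single library left out. The lowest of these was without ESC-derived replicate 2 and the highest without ESC-derived replicate 3. The cause of the remaining moves was not tested. Adding the replicate block to the fit gave counts of 248 and 246, and 238 and 241 of the called genes kept their call. Deviations of same-numbered libraries correlated at 0.18, 0.03 and 0.12 between the 2 groups, so the numbers were not taken as pairs.

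Of 16 named genes that were not called, 7 changed sign at least once, all at differences near 0. On rescaled TPM the differences were 0.024 for Nes, 0.085 for Rps2, 0.094 for Klf4, 0.026 for Otx2 and 0.035 for Prkci, and with the near-identical pairs averaged 0.011 for Prkci. With a library left out, Nes ranged from -0.31 to 0.010, Klf4 from -0.19 to 0.21, Prkci from -0.26 to 0.011, Cdh1 from -0.041 to 0.097 and Pou5f1 from -0.012 to 0.084.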

Other observations

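Transcribed copies of other genes were picked after their values were seen. Some had larger log2 differences than Nnat and Penk, with 7.48 for Rps4l and 6.05 for Ftl1-ps2. Pseudogenes were 9.12% of the genes tested, 20.2% of those called higher in ESC-derived cells (48 of 238) and 8.91% of those called higher in embryo-derived cells (22 of 247). The ferritin light chain copy Ftl2-ps (chr4) was at 1583, 1568 and 1516 TPM in the ESC-derived replicates and 72.4, 64.2 and 71 TPM in the embryo-derived replicates, and Ftl1-ps2 (chr10) at 139.8, 138 and 136 TPM in the ESC-derived replicates and 0.45, 1.84 and 1.23 TPM in the embryo-derived replicates. The ferritin light chain gene Ftl1, an iron-storage subunit, went the other way, at 781, 838 and 804 TPM in the ESC-derived replicates and 2528, 2304 and 2360.0 TPM in the embryo-derived replicates. Summed over the 3 loci, the libraries held 2504, 2544 and 2456 TPM in ESC-derived and 2601, 2370 and 2432 TPM in embryo-derived cells, so that the groups overlapped. Since near-identical copies share reads that the table does not assign, the call of Ftl1 is uncertain.

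All 7 tested numbered pseudogenes of Rps15a, on chr2, chr4, chr5, chr11 and chr19, were called higher in embryo-derived cells, beside 2.04% of all genes. Copies of the same gene can share reads, so these 7 calls are not taken as separate observations and are uncertain. Rps15a-ps8 was at 0.247, 0.157 and 0.423 TPM in the ESC-derived replicates and 18.1, 48.5 and 47 TPM in the embryo-derived replicates, and Rps15a-ps7 at 12.9, 30.4 and 22.1 TPM in the ESC-derived replicates and 105, 192 and 166 TPM in the embryo-derived replicates. Rps15a itself, a small ribosomal subunit protein, was at 479.8, 532 and 323 TPM in the ESC-derived replicates and 359, 364 and 323 TPM in the embryo-derived replicates and overlapped. Summed over Rps15a and its numbered pseudogenes, the libraries held 542, 607 and 386 TPM in ESC-derived and 666, 843 and 764 TPM in embryo-derived cells. Rps4l (chr6), the autosomal copy of a ribosomal protein gene, was at 377, 380.5 and 156 TPM in the ESC-derived replicates and 0.0643, 0.673 and 1.25 TPM in the embryo-derived replicates. The microRNA locus Mir692-2 was at 487, 485 and 493 TPM in the ESC-derived replicates and 1.91, 1.9 and 2.26 TPM in the embryo-derived replicates, with Mir692-1 and Mir692-3 in the same direction, and a locus of this length is not measured as a mature microRNA in poly-A libraries. Mir692-2 (chr4:125504749-125504857) overlaps Ftl2-ps (chr4:125504288-125504839), so these 2 loci are not separate observations. The long noncoding RNA Platr10, named for its link to pluripotency, was at 204, 208 and 223 TPM in the ESC-derived replicates and 6.7, 10.5 and 11.6 TPM in the embryo-derived replicates. In all of these single loci the groups did not overlap, with Rps15a as the exception, and 37.7% of all genes tested did not overlap either.

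Over 9397 protein-coding genes above 2 TPM in all 12 in vitro libraries, the median centred log2 expression of the 552 genes on chr8 was 0.07 and 0.07 in ESC-derived replicates 1 and 2, -0.06 in replicate 3, and -0.08, -0.07 and -0.09 in the embryo-derived libraries. Replicates 1 and 2 were thus higher than the other 4 libraries by 0.14, and on the other 18 autosomes this difference lay between -0.07 and 0.09. In EpiLCs the median of the chr8 genes was 0.23, 0.20 and 0.01, and that of the 438 genes on chr6 was 0.23, 0.22 and -0.05.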
